A study of Mus musculus with 6 samples.

Results

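The genes described here encode the machinery that copies the genome and divides it between daughter cells. They are 51 named genes, 39 of DNA replication and 12 of mitosis, taken from a fixed list of names and found in the count table by gene identifier. Of these, 50 had at least 20 counts summed over the 6 libraries and are described below, against 12366 of the 25044 genes in the whole table. Ccnb2, a mitotic cyclin gene, had 17 counts and stayed outside that minimum, while Cdc20 lay just inside it with 20, followed by Ccna2 with 31, Plk1 with 32 and Cdc6 with 34. The cells were peritoneal macrophages of wild-type C57BL/6 mice, 8 weeks old, recruited by thioglycollate broth given 3 days earlier. They were selected by adherence over 1 h and kept in culture for 24 h. The vehicle group then received DMSO and the trametinib group 100 nM trametinib, an inhibitor of the MEK1 and MEK2 kinases that activate ERK, for 2 h before LPS. LPS, the bacterial ligand of TLR4, was present in both groups for 12 h at 100 ng/ml. Each group had 3 libraries and none came from cells without LPS, so the comparison shows the difference made by trametinib in LPS-treated cells and nothing about LPS itself. The design names 3 mice, and the labels tie no library to a mouse, so the 6 libraries cannot come from 6 mice, and the spread behind every p-value is that of these samples and may be technical.

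A cell that commits to division passes from G1 into S phase when cyclin D kinases and then cyclin E with CDK2 inactivate the RB proteins and release the E2F transcription factors. Replication origins are licensed earlier, in G1, when the origin recognition complex (ORC), CDC6 and CDT1 load the MCM2 to MCM7 helicase. CDC45, the GINS complex and MCM10 then activate that helicase, and polymerases, the sliding clamp PCNA and its loader, replication factor C (RFC), copy the DNA. Mitosis runs on CDK1 with its cyclins, on the Aurora and Polo-like kinases and on the spindle checkpoint, whose genes are transcribed later in the cycle. Macrophages recruited to an inflamed cavity divide little in culture without added growth factor, and ERK is a main route by which growth factors such as CSF1 drive their entry into the cycle.

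The promoters of these genes carry the letters through which both programmes are known to be timed: E2F sites in genes of G1/S, and the cell cycle homology region (CHR) in genes of mitosis. Windows of 300 bases, from 250 before to 50 after each RefSeq transcription start (GRCm38.p6), were searched on both strands for the E2F words TTTCCCGC, TTTCGCGC, TTTGCCGC and TTTGGCGC, and for the CHR word TTTGAA. A promoter was found for 41 of the 51 genes, 31 of replication and 10 of mitosis. E2F words stood in 15 of the 31 replication promoters (48.4%) and in 1 of the 10 mitosis promoters (10.0%), that of Cdk1, against 4.83% of the 9031 tested genes with a promoter and 2.6% of all 27025 genes with a promoter in the RefSeq table. The CHR word stood in 6 of 31 (19.4%) and 7 of 10 (70.0%), against 1267 of the 9031 tested genes with a promoter and 20.2% of all 27025 genes with one. Among replication genes the E2F words were most frequent in licensing, with 7 of 10 promoters. Below are stretches just upstream of the annotated start, free of annotated exons, of 4 replication genes (3 that fell with trametinib and Mcm6, the best expressed MCM gene, which did not pass the test) and of 4 mitosis genes. They are printed 5′ to 3′ on the strand of the gene, and capitals mark the E2F and CHR words on either strand.
Cdc25a: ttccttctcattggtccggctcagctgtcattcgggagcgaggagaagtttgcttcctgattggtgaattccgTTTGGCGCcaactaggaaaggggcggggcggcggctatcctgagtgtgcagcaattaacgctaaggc
E2f3: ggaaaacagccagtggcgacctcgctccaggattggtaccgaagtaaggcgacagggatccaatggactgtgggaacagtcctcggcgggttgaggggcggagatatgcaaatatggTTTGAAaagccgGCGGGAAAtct
Mcm6: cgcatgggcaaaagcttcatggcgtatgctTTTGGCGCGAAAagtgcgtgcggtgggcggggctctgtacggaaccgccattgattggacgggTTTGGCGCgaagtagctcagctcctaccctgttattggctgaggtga
Pola1: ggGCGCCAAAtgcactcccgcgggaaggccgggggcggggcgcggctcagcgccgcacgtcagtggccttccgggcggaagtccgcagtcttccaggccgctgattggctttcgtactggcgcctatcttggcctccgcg
Mki67: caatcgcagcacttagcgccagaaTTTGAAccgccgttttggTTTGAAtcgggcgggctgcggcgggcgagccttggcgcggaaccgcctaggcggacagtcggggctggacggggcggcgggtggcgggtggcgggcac
Top2a: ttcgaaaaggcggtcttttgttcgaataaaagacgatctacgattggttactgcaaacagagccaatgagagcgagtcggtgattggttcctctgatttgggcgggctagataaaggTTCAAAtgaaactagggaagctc
Cdk1: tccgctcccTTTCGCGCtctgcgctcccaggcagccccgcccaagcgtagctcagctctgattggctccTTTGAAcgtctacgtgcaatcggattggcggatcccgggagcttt
Cdc20: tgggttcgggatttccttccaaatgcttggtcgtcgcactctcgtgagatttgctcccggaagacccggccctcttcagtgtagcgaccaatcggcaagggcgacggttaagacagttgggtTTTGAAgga
Mcm6 (chr1:128359706-128359845, minus strand) has 3 E2F words, of which 2 overlap, and Mki67 (chr7:135716380-135716519, minus strand) has 2 CHR words. Cdc25a (chr9:109875439-109875578, plus strand) and Pola1 (chrX:93632156-93632295, minus strand) have 1 E2F word each, and E2f3 (chr13:29986064-29986203, minus strand) has 1 of each kind. Top2a (chr11:99024190-99024329, minus strand) and Cdc20 (chr4:118437353-118437483, minus strand) have 1 CHR word each, and the Cdk1 stretch (chr10:69352939-69353052, minus strand) has 1 CHR and 1 E2F word. By direction of change, E2F words stood in 3 of the 8 matched promoters of genes that rose, in 5 of the 8 of genes that fell and in 7 of the 19 of tested genes that did not pass. The CHR word stood in 3 of 8 (37.5%), 1 of 8 (12.5%) and 6 of 19 (31.6%) of these promoters. A matching word is a description of the sequence and does not show that a factor binds there.

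The libraries held 17453778 to 19648467 counts. All 8 macrophage markers were present, at a summed 15773 to 17553 CPM (counts relative to the scaled library size) in vehicle and 14758 to 16392 CPM in trametinib libraries, with 2 of the 8 higher and 2 lower. The listed markers of B cells, T and NK cells, eosinophils, dendritic cells, resident large peritoneal macrophages, and fibroblasts and mesothelium each summed to less than 4 CPM in every library, with Msln at 0 throughout. Neutrophil markers summed to 4.37 to 7.23 CPM and 4.29 to 9.02 CPM, and mast cell markers to 2.96 to 4.26 CPM and 4.23 to 7.14 CPM, with Mcpt4 at 0. The part of such cells in the results below was not tested. In several genes below, vehicle replicate 3 lay away from the rest of its group: it had 143 CPM of Mki67, against 68.2 and 69.4 CPM in the other vehicle libraries, and 19.2 CPM of Ccnd3, against 37.5 and 37.4 CPM. For the 17 genes called below, the vehicle library nearest to the trametinib mean was replicate 1 in 4, replicate 2 in 6 and replicate 3 in 7.

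Most of these genes were expressed at low levels. Divided by exon length, the median gene had 1.46 CPM per kilobase (CPM/kb, mean of the 6 libraries), against 4.65 CPM/kb for the median of all 11286 tested genes, and 40 of the 50 genes lay below that tested-gene median. Tested genes had passed a minimum expression filter that kept 43 of the 50, and 6 of the 11 mitosis genes. Genes it removed would therefore tend to lie low in this comparison. Replication genes had a median of 1.77 CPM/kb and mitosis genes a median of 0.140 CPM/kb, with 30 of 39 and 10 of 11 below the tested-gene median. Pcna, the sliding clamp that also serves DNA repair, was the highest at 60.4 CPM/kb, above 93.4% of tested genes. Gins4 followed at 13.5 CPM/kb and Mki67, the gene of the Ki-67 antigen that coats mitotic chromosomes, at 10.7 CPM/kb. Next came Rfc2 (9.33), Cdt1 (9.25), Ccne1 (8.35), E2f1 (8.19) and Mcm6 (6.28 CPM/kb). At the other end stood Ccna2, the cyclin of S phase and early mitosis, at 0.0704 CPM/kb, the licensing factor Cdc6 at 0.0599 CPM/kb and Pole, the catalytic subunit of the leading-strand polymerase, at 0.0495 CPM/kb, a level with 0.16% of tested genes below it. Levels within licensing were uneven: Cdt1 and Mcm6 lay above the tested-gene median, while Cdc6, which acts in the same loading step, had 3 to 8 counts per library. In whole-culture RNA, few cells with much of a transcript and many cells with little of it cannot be told apart.

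**Figure D1:**
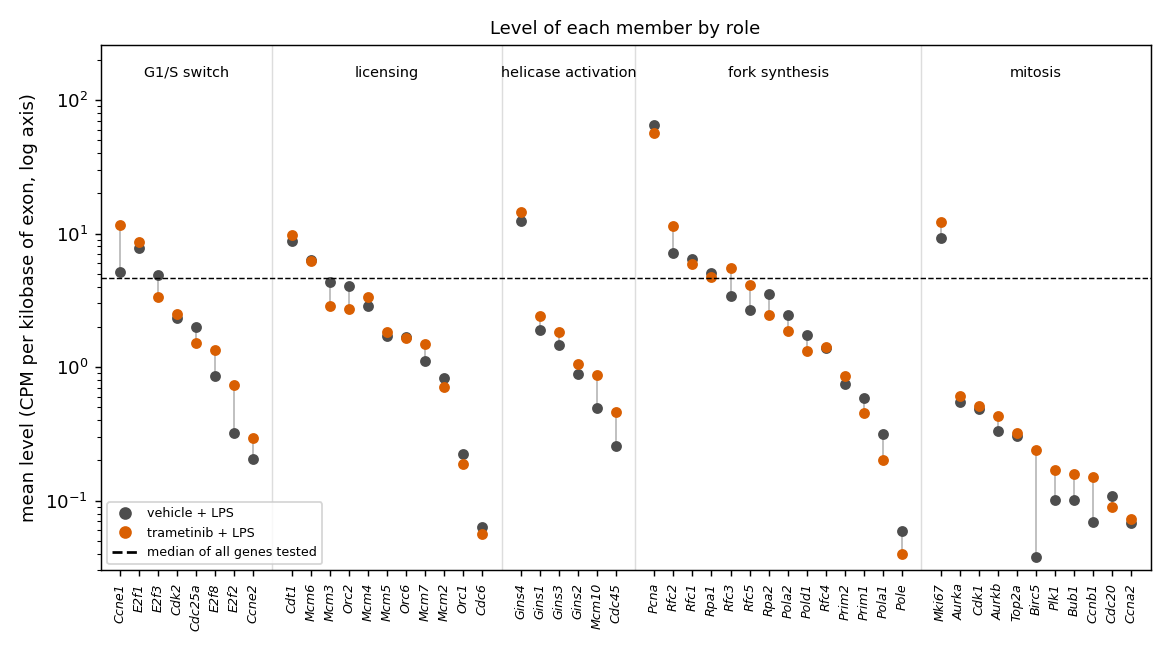
Mean level per group of the 50 genes with at least 20 counts, by role (vertical log axis, CPM per kilobase of exon; grey, vehicle and LPS; orange, trametinib and LPS; 3 libraries each; dashed line, median of all tested genes at 4.65). Apart from Mki67 at 9.30 CPM/kb with vehicle and 12.2 CPM/kb with trametinib, the group means of the mitosis genes sit at 0.606 CPM/kb or lower. Those of the replication genes spread from 0.0398 to 64.5 CPM/kb.

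With trametinib, replication genes changed in both directions, and the tested mitosis genes did not pass the threshold. A minimum expression filter kept 43 of the 50 genes for the edgeR quasi-likelihood test, and a gene was called at a Benjamini-Hochberg adjusted p under 0.05 over all 11286 genes tested. Of the 43, 9 rose (20.9%, where 15.8% of all tested genes rose), 8 fell (18.6%, where 18.4% of all tested genes fell) and 26 did not pass. Both shares lie near those of all genes. Only Ccne1 and E2f2 were called with at least a 2-fold difference, a size and call reached by 6.60% of all tested genes. The median log2 fold change (trametinib over vehicle) was 0.13, within a range of −0.65 to 1.20, against −0.01 for all tested genes. By role, 3 genes rose and 2 fell of 8 in the G1/S switch, 1 rose and 2 fell of 10 in licensing, 2 rose of 6 in helicase activation, 3 rose and 4 fell of 13 in synthesis at the fork, and none of 6 in mitosis was called. All 17 called genes had groups that did not overlap, which the call itself favours. The groups of Ccne2, Gins2 and Bub1, tested and not called, did not overlap either. The share over all tested genes was not counted, so the lack of overlap is not read as a trait of these genes. Without vehicle replicate 3, 12 of these genes rose and 8 fell, where 19.3% and 21.4% of all genes tested there rose and fell. Omitting any other library lowered the number of falls among these genes and among all genes alike: to 4 without vehicle replicate 1 (12.3% of all genes tested fell there), 4 without vehicle replicate 2 (12.8%), 4 without trametinib replicate 1 (11.9%), 3 without trametinib replicate 2 (12.7%) and 6 without trametinib replicate 3 (17.1%).

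**Figure D2:**
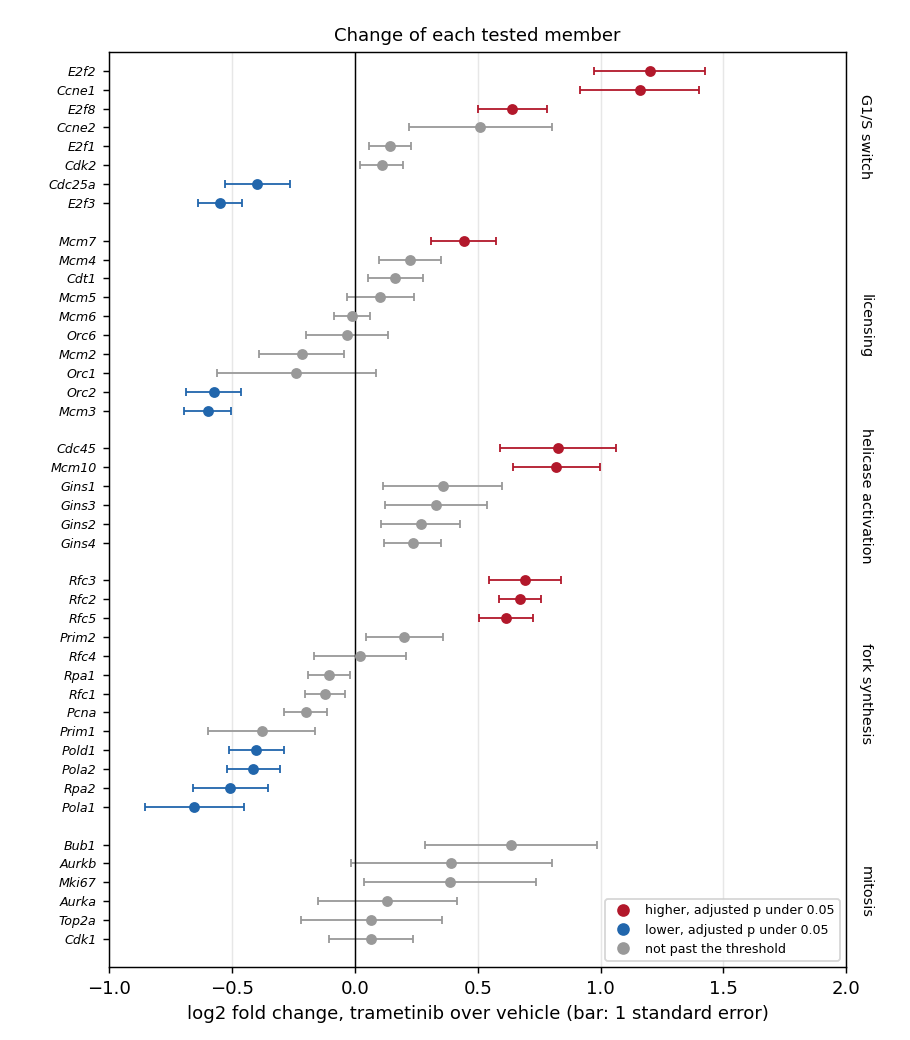
Log2 fold change of trametinib over vehicle (horizontal axis; bars, 1 standard error; 3 libraries per group) for the 43 tested genes, ordered by size within each role. Red marks the 9 called higher, blue the 8 called lower and grey the 26 that did not pass; the called genes run from −0.65 (Pola1) to 1.20 (E2f2).

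In the G1/S switch, cyclin E1 and 2 E2F genes rose while E2f3 and Cdc25a fell. Ccne1, the cyclin that activates CDK2 at S phase entry (ENSMUSG00000002068, chr7:38097984-38107534), had 11.6, 10.2 and 19.4 CPM in the vehicle libraries and 32.4, 33.1 and 26.6 CPM in the trametinib libraries. Vehicle replicate 3 was the highest of its group, and all trametinib libraries lay above it. Ccne1 rose 2.23-fold, from 13.7 ± 4.95 to 30.7 ± 3.58 CPM (SD, n = 3 per group), with a log2 standard error (SE) of 0.24 and an edgeR adjusted p of 0.0117. Its adjusted p ranged from 9.43e-07 to 0.0503 over the alternatives, the highest with no filter on low counts, and was 0.0506 with the replicate block and the 20-count filter together. Ccne2, its paralog, had 0.718 ± 0.145 and 1.02 ± 0.124 CPM and did not pass (log2 fold change 0.51, SE 0.29, edgeR adjusted p 0.205), and its exons share 609 bases with Ints8 on the opposite strand. Cdk2, their kinase partner, had 14.4 ± 0.619 and 15.5 ± 0.798 CPM (edgeR adjusted p 0.362).

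The E2F family split. E2f2, an activating member (ENSMUSG00000018983, chr4:136172394-136196057), had 1.57, 1.28 and 1.84 CPM with vehicle and 4.43, 3.06 and 3.34 CPM with trametinib, and its groups did not overlap. It rose 2.30-fold (SE 0.22 on the log2 scale, edgeR adjusted p 0.00411), the largest rise among the tested replication and mitosis genes. E2f8, an atypical member that represses E2F targets, had 4.04, 4.57 and 5.51 CPM with vehicle and 7.62, 7.36 and 7.07 CPM with trametinib. It rose 1.56-fold (SE 0.14, edgeR adjusted p 0.00870), with all 3 trametinib libraries above the highest vehicle library, and it shares 610 bases of exon with Gm2788 on the opposite strand. E2f3, an activating member with also a repressing isoform, had 27.1, 28.6 and 24.4 CPM with vehicle against 18.2, 17.3 and 19.3 CPM with trametinib. It fell by 0.55 on the log2 scale (SE 0.09, edgeR adjusted p 0.00215), without overlap of the groups. E2f1, the founding activator, had the highest level per length of the 4 E2F genes, and its libraries held 23.8, 25.5 and 24.4 CPM with vehicle and 29.1, 27.4 and 24.8 CPM with trametinib. Its groups overlapped, and it did not pass (log2 fold change 0.14, SE 0.09, edgeR adjusted p 0.230).

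Cdc25a, the phosphatase that activates CDK2, had 17.2, 16.0 and 14.7 CPM with vehicle and 12.9, 9.83 and 13.6 CPM with trametinib. The groups came close, the lowest vehicle library being at 14.7 CPM and the highest trametinib library at 13.6 CPM. Cdc25a fell by 0.40 on the log2 scale (SE 0.13, edgeR adjusted p 0.0455). This call was lost under the 1 CPM filter (adjusted p 0.05004) and with DESeq2 (0.0618), and without vehicle replicate 1, vehicle replicate 2, trametinib replicate 1 or trametinib replicate 2 (adjusted p 0.147, 0.105, 0.0859 and 0.127).

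Upstream of these genes, 4 of the 9 listed genes of G1 entry fell (Ccnd1, Ccnd2, Ccnd3 and Cdk6) and 2 rose (the CDK inhibitors Cdkn1a and Cdkn1b), where 18.4% of all tested genes fell and 15.8% rose. The call of Ccnd1 (edgeR adjusted p 0.0370) ended with no filter, with limma-voom and without any one library except vehicle replicate 3, with adjusted p up to 0.228, and vehicle replicate 3 had 1.67 CPM of it, against 12.0 and 14.4 CPM in the other vehicle libraries. Cdkn1a (edgeR adjusted p 0.0411) lost its call in the same 5 omissions of a library (up to 0.148), and Cdkn1b lost its own without vehicle replicate 1 or 2 (up to 0.0535). Cdk6, a kinase partner of the D cyclins, had 68.6, 64.4 and 51.5 CPM with vehicle and 25.4, 23.3 and 29.4 CPM with trametinib. It fell by 1.24 on the log2 scale (SE 0.13, edgeR adjusted p 0.000412). Ccnd2, a D cyclin, fell from 57.9 ± 13.4 to 6.81 ± 3.96 CPM, by 3.08 on the log2 scale (SE 0.42, edgeR adjusted p 0.00431). Ccnd3 fell from 31.4 ± 10.5 to 12.1 ± 1.95 CPM, by 1.38 (SE 0.28, edgeR adjusted p 0.0122; 0.0557 with no filter on low counts and 0.0506 without trametinib replicate 3). In these 3 genes vehicle replicate 3 was the lowest of its group, at 42.4 CPM for Ccnd2 and 19.2 CPM for Ccnd3, and still lay above every trametinib library. The D cyclins and cyclin E1 thus differed in opposite directions between the same groups.

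**Figure D3:**
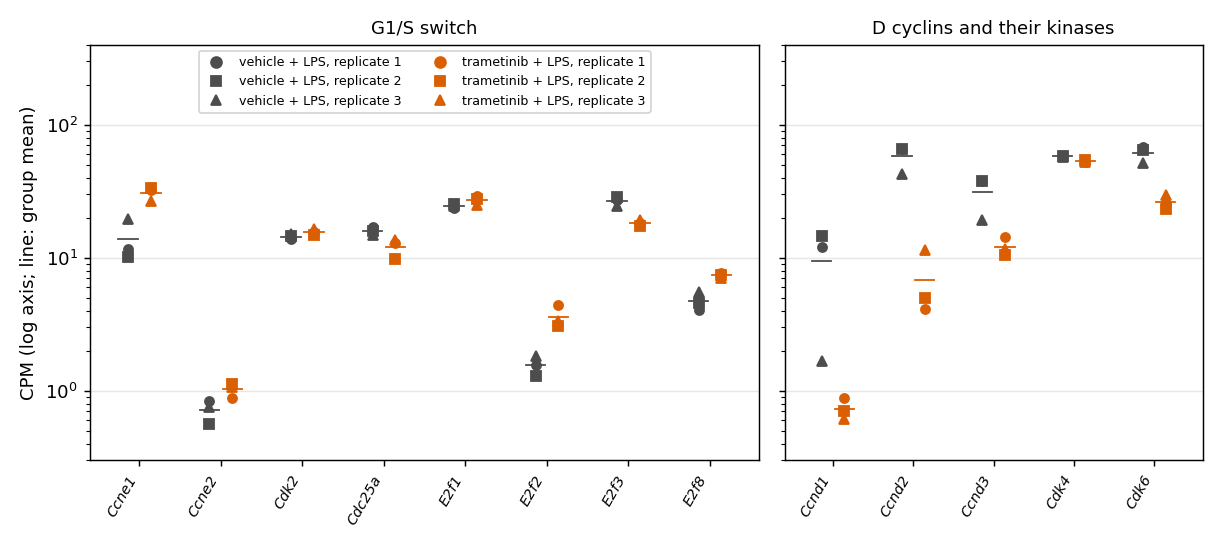
CPM in each library (vertical log axis; grey, vehicle and LPS; orange, trametinib and LPS; shapes, replicate number; lines, group means of 3) for the genes of the G1/S switch on the left and for D cyclins and their kinases on the right. Ccne1 moves up from 13.7 to 30.7 CPM between the group means while Ccnd2 moves down from 57.9 to 6.81 CPM.

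Among licensing genes, 2 of the subunits that mark and open origins fell and 1 rose, and the others did not pass. Mcm3, a subunit of the MCM helicase ring (ENSMUSG00000041859, chr1:20802968-20820312), had 16.9, 15.3 and 16.7 CPM with vehicle and 9.93, 11.2 and 11.1 CPM with trametinib. Every trametinib library lay well below the vehicle libraries, and Mcm3 fell by 0.60 on the log2 scale (SE 0.10, edgeR adjusted p 0.00199). Orc2, a core subunit of the origin recognition complex, had 17.5, 14.6 and 15.0 CPM with vehicle and 9.63, 10.5 and 11.4 CPM with trametinib, again without overlap. Orc2 fell by 0.57 (SE 0.11, edgeR adjusted p 0.00472). Its exons share 1150 bases with Nif3l1 on the opposite strand, a gene that fell by 0.47 (edgeR adjusted p 0.00597). Because the strand setting of the counting is not given in the sources used here, reads of such a pair cannot be told apart. Mcm7, another ring subunit, had 4.26, 5.24 and 5.13 CPM with vehicle and 6.32, 6.66 and 6.90 CPM with trametinib. It rose 1.36-fold (SE 0.13, edgeR adjusted p 0.0301), and it also overlaps genes on the opposite strand, Cops6 by 64 bases and Ap4m1 by 321 bases of exon. The Mcm7 call was lost with DESeq2 (adjusted p 0.0716), and without vehicle replicate 1 (0.118), vehicle replicate 2 (0.0560), trametinib replicate 1 (0.0684), trametinib replicate 2 (0.0776) or trametinib replicate 3 (0.0708).

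The 6 MCM subunits work as one ring, yet their transcripts differed in level and in change. Mcm6 was the highest per length (6.28 CPM/kb), followed by Mcm3 (3.61), Mcm4 (3.13), Mcm5 (1.77), Mcm7 (1.30) and Mcm2 (0.769 CPM/kb). Mcm6 held 31.0, 28.7 and 28.5 CPM with vehicle and 29.0, 29.9 and 28.6 CPM with trametinib, overlapping groups with a log2 fold change of −0.01 (SE 0.07, edgeR adjusted p 0.916). Mcm2, Mcm4 and Mcm5 had log2 fold changes of −0.22, 0.22 and 0.10 and did not pass, although Mcm4 passed without vehicle replicate 3 (adjusted p 0.0255). Summed over the 6 subunits, the ring had 73.5 ± 1.96 CPM with vehicle and 70.9 ± 1.09 CPM with trametinib (n = 3 per group). Cdt1, which brings the helicase to the origin, had 27.4 ± 4.18 and 30.7 ± 1.50 CPM and did not pass (edgeR adjusted p 0.283). Orc1 and Orc6, the other ORC subunits listed, had 0.773 ± 0.0980 and 4.16 ± 0.715 CPM with vehicle, and log2 fold changes of −0.24 and −0.03. Cdc6, with 3 to 8 counts per library, was too low for the test.

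All 6 helicase activation genes had a higher mean with trametinib, and 2 of them passed (1 with DESeq2). None fell by edgeR, DESeq2 or limma-voom, nor at an unadjusted edgeR p under 0.05. Of all tested genes 15.8% rose and 18.4% fell, and 6 genes are too few to set these counts apart from those shares. Mcm10, which helps to open the helicase, had 3.53, 4.80 and 3.13 CPM with vehicle and 6.91, 7.31 and 6.01 CPM with trametinib. The lowest trametinib library was above the highest vehicle library, and Mcm10 rose 1.77-fold (SE 0.18, edgeR adjusted p 0.00799). Cdc45, a subunit of the active helicase, had only 15 to 17 counts per vehicle library and 27 to 31 counts per trametinib library. In CPM these were 0.953, 0.948 and 0.810 against 1.65, 1.45 and 1.73, a rise of 1.78-fold (SE 0.24, edgeR adjusted p 0.0253). Cdc45 shares 209 bases of exon with Ufd1 on the opposite strand. Its call was lost with DESeq2 (adjusted p 0.0973), and without vehicle replicates 1, 2 or 3 (0.0672, 0.0656 and 0.0559) or trametinib replicates 1 or 3 (0.0837 and 0.0678). The genes of the GINS complex had log2 fold changes of 0.36 (Gins1), 0.27 (Gins2), 0.33 (Gins3) and 0.23 (Gins4) and did not pass. Gins4, the most abundant of them, had 15.5, 19.7 and 14.9 CPM with vehicle and 19.9, 20.4 and 18.8 CPM with trametinib, so that vehicle replicate 2 lay among the trametinib libraries (edgeR adjusted p 0.145). Single libraries decided these: Gins1 passed without trametinib replicate 3 (0.0403), Gins3 without vehicle replicate 3 (0.0176) and Gins4 without vehicle replicate 2 (0.0330). Gins2 shares 2758 bases of exon with Gse1 on the opposite strand. With the strand setting not given, reads of Gins2 and Gse1 cannot be told apart there.

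At the replication fork, some subunits of the clamp loader rose while some polymerase subunits and RPA2 fell. Rfc2, a small subunit of RFC (ENSMUSG00000023104, chr5:134581366-134601805), had 46.5, 43.9 and 45.7 CPM with vehicle and 76.0, 77.5 and 63.3 CPM with trametinib. It rose 1.59-fold (SE 0.09, edgeR adjusted p 0.000839), the smallest adjusted p among the 43 genes. Rfc3 had 11.5, 12.5 and 13.0 CPM with vehicle and 19.1, 24.5 and 16.2 CPM with trametinib, and rose 1.62-fold (SE 0.15, edgeR adjusted p 0.00758). Rfc5 had 12.5, 12.8 and 12.4 CPM with vehicle and 21.4, 20.0 and 16.3 CPM with trametinib, and rose 1.53-fold (SE 0.11, edgeR adjusted p 0.00358). In these 3 genes the vehicle libraries lay close together, and trametinib replicate 3 was the lowest of its group yet above all of them. Rfc4, the remaining small subunit, held 2.13 ± 0.181 and 2.16 ± 0.184 CPM (log2 fold change 0.02, SE 0.19), and Rfc1, the large subunit, 38.9 ± 3.07 and 35.8 ± 1.39 CPM (log2 fold change −0.12, SE 0.08). Neither passed, so 3 of the 5 subunits of the loader rose. Of the 13 tested fork genes 3 rose (23.1%) and 4 fell (30.8%), where 15.8% and 18.4% of all tested genes rose and fell. These genes are too few to set their counts apart from those shares. Rfc2 shares 952 bases of exon with Lat2 and Rfc5 shares 499 bases with Wsb2 on opposite strands. Lat2 and Wsb2 had log2 fold changes of −0.09 and 0.00 (edgeR adjusted p 0.607 and 0.997).

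**Figure D4:**
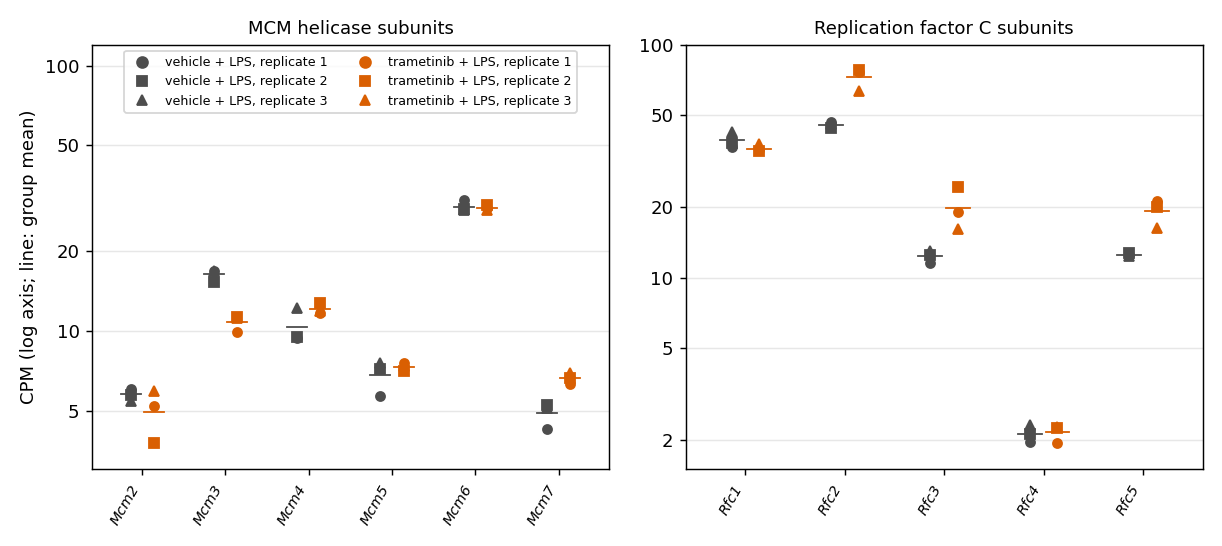
CPM in each library (vertical log axes with their own ranges; grey, vehicle and LPS; orange, trametinib and LPS; shapes, replicate number; lines, group means of 3) for the 6 MCM subunits on the left and the 5 RFC subunits on the right. Mcm3 moves from 16.3 to 10.8 CPM between group means while Mcm6 stays at 29.4 and 29.2 CPM, and Rfc2, Rfc3 and Rfc5 rise while Rfc1 and Rfc4 overlap.

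The polymerase genes that passed went the other way. Pola1, the catalytic subunit of polymerase alpha, which starts each DNA strand, had 2.35, 2.73 and 3.29 CPM with vehicle and 1.65, 1.83 and 1.84 CPM with trametinib. It fell by 0.65 on the log2 scale (SE 0.20, edgeR adjusted p 0.0342), the largest fall among the tested genes of the list. Pola2, its accessory subunit, had 22.9, 19.1 and 19.5 CPM with vehicle and 15.2, 13.97 and 17.0 CPM with trametinib. It fell by 0.41 (SE 0.11, edgeR adjusted p 0.0180). Pold1, the catalytic subunit of the lagging-strand polymerase delta, had 8.74, 8.42 and 8.05 CPM with vehicle and 6.86, 6.07 and 6.18 CPM with trametinib, and fell by 0.40 (SE 0.11, edgeR adjusted p 0.0230). Rpa2, a subunit of the complex that coats single-stranded DNA, had 9.64, 11.9 and 9.94 CPM with vehicle and 6.97, 6.28 and 8.91 CPM with trametinib, and fell by 0.51 (SE 0.15, edgeR adjusted p 0.0319). The groups of all 4 genes were separate but close, Rpa2 having its highest trametinib library at 8.91 CPM below a lowest vehicle library at 9.64 CPM.

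These 4 calls each ended in at least 1 alternative, unlike those of the RFC genes. Pola1 was lost with DESeq2 (adjusted p 0.101), and without vehicle replicates 2 or 3 or trametinib replicates 1, 2 or 3 (0.0795, 0.0846, 0.113, 0.0826 and 0.0633). Pola2 was lost without vehicle replicate 1 (0.0786) and trametinib replicates 1 or 2 (0.0685 and 0.0764). Pold1 was lost with DESeq2 (0.0833), and without vehicle replicates 1 or 2 (0.0889 and 0.0719) or trametinib replicates 2 or 3 (0.0756 and 0.0539). Rpa2 was lost without vehicle replicates 1 or 2 (0.0520 and 0.113) or trametinib replicates 1 or 2 (0.109 and 0.112).

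Pcna, the most abundant of these genes (ENSMUSG00000027342, chr2:132249162-132253314), had 162, 162 and 141 CPM with vehicle and 138, 142 and 124 CPM with trametinib. Its groups touched, vehicle replicate 3 falling between trametinib replicates 1 and 2, and it did not pass (log2 fold change −0.20, SE 0.09, edgeR adjusted p 0.104). With the replicate number as a block its adjusted p was 0.0210, and without vehicle replicate 3 it was 0.0195. The primase genes, which make the RNA primers, had log2 fold changes of −0.38 (Prim1, SE 0.22) and 0.20 (Prim2, SE 0.16), and Rpa1 had −0.11 (SE 0.09). Those 3 did not pass, and Pole, with 5 to 15 counts per library, was too low for the test.

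None of the 6 tested mitosis genes was called in either direction by edgeR (0 at an unadjusted p under 0.05), DESeq2 or limma-voom, and 5 others with at least 20 counts were too low for the test. Of all tested genes 15.8% rose and 18.4% fell. These 6 are a small part of the mitosis genes, and of 20 further ones tested, given below, 8 rose. Mki67 (ENSMUSG00000031004, chr7:135689784-135716361) had 1217, 1244 and 2649 counts in the vehicle libraries and 1895, 1942 and 2710 counts in the trametinib libraries. In CPM these were 68.2, 69.4 and 143 against 112, 104 and 151, so vehicle replicate 3 was at a trametinib level and the groups overlapped. The log2 fold change of Mki67 was 0.39 (SE 0.35, edgeR adjusted p 0.447). In each numbered pair the trametinib library was the higher. The replicate block gave an adjusted p of 0.0452, and leaving out vehicle replicate 3 gave a log2 fold change of 0.83 and an adjusted p of 0.0123. Mki67 alone made up 89.3% to 93.5% of the summed CPM of the mitosis genes, and per length it stood at 34.1 times the level of Top2a, the topoisomerase that untangles chromosomes. Top2a had 38, 40 and 73 counts with vehicle and 53, 40 and 62 with trametinib, and here too vehicle replicate 3 was the highest of its group (log2 fold change 0.07, SE 0.29, edgeR adjusted p 0.880).

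Cdk1, the master kinase of mitosis, was even across the libraries, with 45, 44 and 42 counts with vehicle and 45, 46 and 44 counts with trametinib. Its log2 fold change was 0.06 (SE 0.17, edgeR adjusted p 0.801). The Aurora kinase genes, which act at the spindle poles (Aurka) and the centromeres (Aurkb), had 21 to 33 and 12 to 25 counts per vehicle library and 20 to 33 and 13 to 37 counts per trametinib library. Their log2 fold changes were 0.13 (SE 0.28) and 0.39 (SE 0.41). Bub1, a spindle checkpoint kinase, had 6, 9 and 9 counts with vehicle and 10, 12 and 15 with trametinib, reached the filter only through the trametinib group, and did not pass (log2 fold change 0.64, SE 0.35, edgeR adjusted p 0.191). The median SE of the 6 tested mitosis genes was 0.32, against 0.14 for the 37 tested replication genes. In this fit without the block, the changes of the mitosis genes were thus measured less precisely. With the replicate block the SE was 0.13 for Mki67 and 0.20 for Top2a, against 0.35 and 0.29 without it. For Cdk1, Aurka, Aurkb and Bub1 the SE with the block was 0.17, 0.30, 0.41 and 0.35.

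Birc5, the gene of survivin, a subunit of the chromosomal passenger complex (ENSMUSG00000017716, chr11:117849251-117855743), had 2, 2 and 3 counts with vehicle and 16, 21 and 7 counts with trametinib. Its 44 counts against 7 gave a ratio of 6.38 after scaling, with an exact 95% interval of 2.85 to 16.8 that covers counting error only. The minimum expression filter removed Birc5, so it is not among the calls above. Under a filter of 20 counts summed over the libraries it had a log2 fold change of 2.61 (SE 0.56, edgeR adjusted p 0.00717), but it reached that filter only through the trametinib libraries, so this p is only a description of these counts. Ccnb1, the cyclin that activates CDK1, had 1, 7 and 8 counts with vehicle and 11, 11 and 12 with trametinib. Its groups did not overlap, and under the 20-count filter it did not pass (log2 fold change 1.09, SE 0.52, edgeR adjusted p 0.142). Plk1 had 6, 5 and 1 counts with vehicle and 6, 11 and 3 with trametinib, Ccna2 had 4 to 7 counts and Cdc20 had 3 to 5 counts in every library. Ccnb2, the member under the minimum, had 1, 7 and 0 counts with vehicle and 1, 0 and 8 with trametinib.

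**Figure D5:**
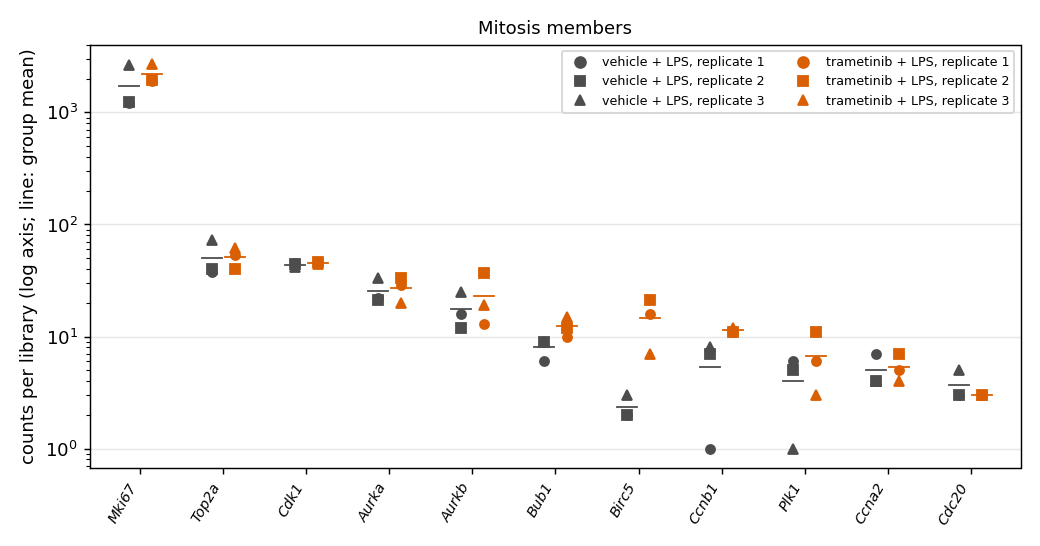
Counts in each library (vertical log axis; grey, vehicle and LPS; orange, trametinib and LPS; shapes, replicate number; lines, group means of 3) for the 11 mitosis genes with at least 20 counts, in order of their total. Mki67 stands at 1217 to 2710 counts, the other genes at 73 counts or fewer, and Birc5 at 2 to 3 counts with vehicle and 7 to 21 with trametinib.

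Set beside each other, the replication genes had the higher median level and changed both ways. The mitosis genes had the lower median level, and none of the 6 tested was called in the main fit. Mki67 passed with the replicate block (edgeR adjusted p 0.0452) and without vehicle replicate 3 (0.0123). Birc5, outside the main filter, passed with no filter, with 20 counts summed and in some omissions of a library. Except with no filter, Birc5 was kept only through the trametinib libraries, so those passes only describe its counts. Of 37 tested replication genes 9 rose (24.3%), 8 fell (21.6%) and 20 did not pass, where 15.8% and 18.4% of all tested genes rose and fell. The median log2 fold change of the 37 was 0.11. The 6 tested mitosis genes ranged from 0.06 to 0.64 with a median of 0.26. Summed over its genes, replication had 605, 604 and 592 CPM with vehicle and 635, 634 and 599 CPM with trametinib, a ratio of 1.04. Without Pcna the sum was 445 ± 4.79 and 488 ± 11.6 CPM (n = 3 per group), a ratio of 1.10. The mitosis sum was 76.4, 77.6 and 154 CPM with vehicle and 123, 116 and 161 CPM with trametinib, a ratio of 1.30, with groups that overlapped although the trametinib library was the higher in each numbered pair. Without Mki67 the mitosis sum was only 9.11 ± 1.60 and 11.2 ± 0.678 CPM, a ratio of 1.23. The difference between replication and mitosis genes in their response was not tested.

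Other genes of the same processes were counted as well. Of 25 tested genes of S phase and nucleotide supply 5 rose (Tk1, Lig1, Gmnn and Dnmt1 among them) and 3 fell (Pold2, Rpa3 and Orc5). These are shares of 20.0% and 12.0%, where 15.8% and 18.4% of all tested genes rose and fell. With DESeq2 4 rose and none fell, and leaving out 1 library at a time gave 2 to 7 higher and 0 to 2 lower. Tk1 and Gmnn lost their calls in every omission of a library except that of vehicle replicate 3, and Rpa3 lost its call in every omission. Lig1, the ligase that joins Okazaki fragments, rose from 5.83 ± 0.340 to 10.9 ± 1.20 CPM (edgeR adjusted p 0.00105). Dnmt1, the maintenance DNA methyltransferase, rose by 0.28, from 86.8 ± 5.82 to 105 ± 5.08 CPM (edgeR adjusted p 0.0163), and lost its call without vehicle replicates 1 or 2 or trametinib replicate 1 (0.0583, 0.0722 and 0.0742).

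A further list held the RB family, other E2F genes and their Tfdp partners, genes of the DREAM complex, and Mybl2 and Foxm1. Of its 14 tested genes, 5 rose (Rbl1, Lin9, Mybl2, Tfdp2 and E2f5) and 3 fell (Tfdp1, E2f4 and E2f6). These are 35.7% and 21.4%, where 15.8% and 18.4% of all tested genes rose and fell. Mybl2, with 20 counts summed over vehicle and 68 over trametinib, reached the expression filter only through the trametinib group. Leaving out 1 library at a time gave 2 to 6 genes higher and 1 to 4 lower in this list. E2f5, an E2F of quiescent cells, had 16.3, 16.7 and 15.0 CPM with vehicle and 24.9, 29.6 and 23.7 CPM with trametinib, and rose by 0.70 (SE 0.10, edgeR adjusted p 0.00138). Rbl1, which encodes the RB relative p107, rose from 140 ± 26.4 to 219 ± 14.7 CPM (edgeR adjusted p 0.00593). E2f6, a repressor that works without RB proteins, fell from 14.8 ± 0.545 to 9.87 ± 1.57 CPM (edgeR adjusted p 0.00681).

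Of 20 tested further genes of mitosis, 8 rose (40.0%) and none fell (0 also at an unadjusted edgeR p under 0.05 and with DESeq2 or limma-voom). Those that rose were Cenpa, Bub1b, Tpx2, Prc1, Cks2, Cdc25b, Wee1 and Incenp. Of these, Bub1b (without vehicle replicate 2 or trametinib replicates 1 or 2), Prc1 (without vehicle replicates 1 or 2 or trametinib replicate 3) and Cks2 (without any one library except vehicle replicate 3) lost their calls, with adjusted p up to 0.103, 0.0638 and 0.121. The count of genes higher was 5 to 7 without those libraries and 11 without vehicle replicate 3. With the replicate block, Cenpe and Ccnf also rose (adjusted p 0.0471 and 0.0354) and Pttg1, the gene of securin, fell (0.0114), which made 10 higher and 1 lower, where 20.5% and 22.4% of all tested genes rose and fell. Pttg1 was also the 1 gene of the list called lower without vehicle replicate 3. The share of 40.0% stood above the 15.8% of all tested genes, as a description, since the list was not compared with others by a test. Cdc25b, a phosphatase that activates CDK1, had 3.87, 3.68 and 4.16 CPM with vehicle and 8.10, 7.09 and 7.46 CPM with trametinib, and rose by 0.95 (SE 0.13, edgeR adjusted p 0.000933). Cenpa, the centromeric histone, rose from 1.40 ± 0.363 to 4.04 ± 0.244 CPM (edgeR adjusted p 0.00116). Incenp, the scaffold that holds survivin and Aurora B together, had 54.4, 51.6 and 72.0 CPM with vehicle and 104, 102 and 111 CPM with trametinib, and rose by 0.83 (SE 0.12, edgeR adjusted p 0.00177). The median of the 20 was a log2 fold change of 0.62. Wee1, which inhibits CDK1, also rose, so the genes that rose in this list include both activators and an inhibitor of mitotic entry.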

How the data were processed

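RNA was measured by sequencing in 6 samples, 3 of vehicle with LPS and 3 of trametinib with LPS. The authors deposited raw counts, whole numbers of reads per gene and library, made with HISAT2 2.1.0 and featureCounts 1.6.4 on mm10, per the submitters' processing notes. In the sources used here, annotation, strand setting and handling of multi-mapping reads are not given. Values of genes with near-identical copies (such as processed pseudogenes) and of opposite-strand overlaps are therefore less certain. Among the listed genes, Ccne2, Cdk2, E2f8, Orc1, Orc2, Orc6, Mcm7, Cdc45, Gins2, Pole, Rfc2, Rfc4, Rfc5, Ccna2, Plk1 and Cdc20 have such an overlap of exons.

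Of 25354 entries, 310 identical repeats were removed, and 25033 of the 25044 genes were matched to GENCODE M21 (mm10) for symbols, positions and exon lengths. The 2 groups were compared with edgeR 4.0.16 (robust quasi-likelihood fit, filterByExpr, TMM, group as the only term) and Benjamini-Hochberg adjustment over the 11286 genes tested, at a threshold of 0.05. CPM use TMM-scaled library sizes. SE was taken as |log2 fold change| over the root of the F statistic. Intervals on count ratios are exact at 95% and cover counting error only.

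The listed genes, their roles, the further lists and the markers were chosen with earlier results of these data known. Every listed gene is accounted for, called genes are given in every library, and from each further list up to 3 tested genes with the smallest p are given values. Some items are not reported here. Ccnd1, Wee1 and the other names in counts were added after their values were seen.

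Both groups carry replicate numbers 1 to 3. Across genes, same-numbered libraries deviated together from their group means (correlations 0.339, 0.393 and 0.285), and differently numbered ones did not (−0.0724 to −0.223). Deviations from a group mean cancel within the group, so positive values for equal numbers force negative ones elsewhere, which add no separate support. Equal numbers may thus mark paired samples, but the labels do not say so, and the main fit did not use a pairing. Alternatives were median-ratio size factors, TMM computed after removing mitochondrial and the 10 most abundant genes, 20 counts summed, no filter, 1 CPM in at least 3 libraries, limma-voom (limma 3.58.1), DESeq2 1.42.0, the replicate block and omission of 1 library at a time. Sums without Pcna or Mki67, and the block with the 20-count filter, were chosen after seeing the data. On simulated data with 11191 genes tested, edgeR recovered 29 of the 47 genes set to a 1.5-fold change, 53 of 57 at 2-fold, 45 of 45 at 4-fold and 48 of 48 at 8-fold, with 7 false calls among 10994 unchanged genes. The simulation had no pairing, no outlying library and only 200 genes set to change, where 3869 genes were called in the data. Its rates therefore need not hold for these data. Promoters came from the RefSeq table on GRCm38.p6. Figures used matplotlib 3.10.9.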

Additional observations from a re-analysis of the deposited data

How the results depend on the processing

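Of the 17 called genes, 9 kept direction and call in every alternative (E2f2, E2f3, E2f8, Orc2, Mcm3, Mcm10, Rfc2, Rfc3 and Rfc5), 6 lost the call in some setting that keeps all libraries, 2 lost it only when a library was left out, and 0 changed sign. With all libraries, genes higher numbered 7 to 10 and genes lower 5 to 9, the 5 coming from DESeq2, in which the replication genes lower also numbered 5. Leaving out each library in turn gave 7 to 12 genes higher and 3 to 8 lower, 7 to 10 and 3 to 8 of them replication genes, and 0 to 2 mitosis genes higher, 2 without vehicle replicate 3 (Mki67 and Birc5). All genes changed numbered 2428 to 4663, the lowest without trametinib replicate 1, and 2538 without the first vehicle library. Mitosis genes higher numbered 1 with no filter and 1 with 20 counts summed, Birc5 in both. In the 20-count fit and in the omissions of a library, Birc5 was kept only through the trametinib libraries, so those counts only describe it. With the replicate block they numbered 1, Mki67, and Pcna was the other call the block changed: it changed no other call of a listed gene. Leaving Pcna out lowered the replication sums from 600 and 623 CPM to 445 and 488 CPM, and leaving Mki67 out lowered the mitosis sums from 103 and 134 CPM to 9.11 and 11.2 CPM, because each removes the most abundant gene of its sum. Of the genes not called, 6 turned sign in some fits that leave out a library, and the cause was not tested. Their log2 fold changes ran from −0.16 to 0.078 for Orc6, from −0.012 to 0.19 for Mcm5, from −0.034 to 0.028 for Mcm6, from −0.036 to 0.089 for Rfc4, from −0.089 to 0.41 for Top2a and from −0.085 to 0.71 for Aurkb. Low counts limit several genes: apart from Mki67 the mitosis genes had 73 counts or fewer in any library, and Cdc6 and Pole had 3 to 8 and 5 to 15.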
